A study of Mus musculus with 9 samples.

Results

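The genes described here are 8 markers and regulators of hair follicle and epidermal stem cells, Cd34, Cd44, Thy1, Epcam, Lgr5, Lgr6, Sox9 and Lhx2, taken by name from the 36442 genes of the epidermal RNA-seq table. They were measured in keratinocytes sorted by flow cytometry from adult mouse epidermis, with 2 libraries labelled Mi2 and 2 labelled WT. In the table the Mi2 columns carry the mark KO. The sources used here give no strain, sex, exact age, driver of the deletion or sorting antigens, and do not say whether the libraries of a group came from different mice, so the tests measure the spread between these libraries, which may be technical. The same series holds 5 libraries of regulatory T cells, whose columns name skin. Of these, 2 are labelled Ctl, 2 TSLPR WT Treg_Mi2, and the last is a TSLPR-negative Treg_Mi2 library without a replicate. Their columns carry the marks WT, Mi2KO and TMDKO. Levels in these libraries are given and compared without a test.

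Hair follicles keep their stem cells in the bulge, a niche that in mice is marked by the surface sialomucin CD34 and depends on the transcription factors SOX9 and LHX2. LGR5 marks cycling bulge and hair germ cells, and LGR6 marks cells of the isthmus above the bulge and of the interfollicular epidermis; both are receptors for R-spondins, secreted proteins that strengthen Wnt signals. CD44 is a hyaluronan receptor, EpCAM an epithelial adhesion protein, and THY1 a membrane-anchored glycoprotein known from T cells and fibroblasts and also reported on some keratinocytes.

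The 4 surface antigens Cd34, Cd44, Thy1 and Epcam rose in Mi2 keratinocytes, between 3.36-fold for Epcam and 24.0-fold for Cd34 by the ratio of group means. The R-spondin receptor gene Lgr6 fell, and Lgr5, at a few reads per library, had fewer reads in Mi2. The follicle transcription factor genes Sox9 and Lhx2 were not called. Of the 8 genes, 7 reached the mean of 10 normalized reads needed for testing; 4 were called higher, 1 lower and 2 not called, by limma at a Benjamini-Hochberg adjusted p under 0.05 over all 14461 genes tested. Called genes made up 28.2% of all genes tested, 15.1% higher and 13.1% lower. The median log2 change was 1.75 over the 7 and -0.03 over all genes tested. Cd34 passed the level filter only through its Mi2 libraries, so its presence among the tested genes required a difference. The same filter left out Lgr5, which had fewer reads in Mi2. The 8 genes were also chosen with earlier results of these data known. The median over the 7 is therefore no measure of a shift of the set.

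RefSeq promoters were on hand for 5 of the 8 genes. The 250 bases before the transcription start (GRCm38.p6) are shown for the 4 called genes among them, to set the promoters of 3 genes that rose beside that of Lgr6, which fell. Capitals mark matches on either strand to a GC box (GGGCGG) or a SOX core (ACAATG).
Cd34: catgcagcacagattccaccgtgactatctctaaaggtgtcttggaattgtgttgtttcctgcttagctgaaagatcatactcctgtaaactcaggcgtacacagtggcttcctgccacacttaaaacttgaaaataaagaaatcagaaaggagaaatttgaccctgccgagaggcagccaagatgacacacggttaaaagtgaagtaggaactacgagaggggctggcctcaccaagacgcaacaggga
Cd44: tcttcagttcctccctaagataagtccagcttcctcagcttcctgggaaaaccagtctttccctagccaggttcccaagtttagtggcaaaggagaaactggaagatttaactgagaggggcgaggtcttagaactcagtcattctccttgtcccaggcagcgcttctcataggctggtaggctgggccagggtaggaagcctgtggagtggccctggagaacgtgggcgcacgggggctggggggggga
Epcam: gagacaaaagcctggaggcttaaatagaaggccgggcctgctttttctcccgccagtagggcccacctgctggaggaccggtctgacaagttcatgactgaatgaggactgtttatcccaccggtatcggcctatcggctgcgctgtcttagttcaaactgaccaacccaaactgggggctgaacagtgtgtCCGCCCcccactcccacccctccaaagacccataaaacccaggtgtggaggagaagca
Lgr6: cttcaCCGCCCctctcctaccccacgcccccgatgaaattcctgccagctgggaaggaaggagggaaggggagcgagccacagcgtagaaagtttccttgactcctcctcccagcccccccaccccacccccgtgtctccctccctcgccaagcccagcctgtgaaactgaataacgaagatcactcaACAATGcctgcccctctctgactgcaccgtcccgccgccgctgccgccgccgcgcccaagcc
They lie at chr1:194938571-194938820 on the plus strand for Cd34, chr2:102901666-102901915 on the minus strand for Cd44, chr17:87635729-87635978 on the plus strand for Epcam and chr1:135105277-135105526 on the minus strand for Lgr6, each written 5′ to 3′ along its gene. Cd34 and Cd44 held 0 matches to the 5 motifs searched, Epcam held 1 GC box, and Lgr6 held 1 GC box and 1 SOX core. An AP-1 motif (TGANTCA), a TCF/LEF core (CTTTGA) and a LIM homeodomain core (TAATTA) were in 0 of these 4 windows. Among all 32851 RefSeq promoters of that length, the GC box was in 32.7%, the SOX core in 10.7%, the TCF/LEF core in 13.8%, the AP-1 motif in 6.75% and the LIM homeodomain core in 4.84%. No motif searched was shared by the 3 promoters of genes that rose. G and C made up 46.4% of the Cd34 window, 56.4% of Cd44, 56.4% of Epcam and 65.2% of Lgr6, against a median of 52.4% over all promoters.

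Depth was 5682391 to 7662946 recovered reads in Mi2 and 7002100 to 8913804 in WT. Genes of the mitochondrial genome held 29.7% and 15.5% of all reads in Mi2 replicates 1 and 2, against 13.8% and 12.9% in WT replicates 1 and 2, so Mi2 replicate 1 stood apart. Chd4, which encodes the Mi-2β remodelling ATPase, had 734 and 1207 normalized reads in Mi2 and 1607 and 1942 in WT (log2 change -0.91, SE 0.272, limma adjusted p = 0.0456), a call that ended in 6 of 15 alternative settings. Whole-gene reads do not show whether deleted exons were lost. Keratinocyte markers were high in all 4 libraries, with the basal keratin gene Krt5 at 165634 and 135266 normalized reads in Mi2 and 125451 and 117800 in WT, Krt14 at 79944 and 50895 in Mi2 and 35020 and 32292 in WT, and 9 of 10 keratinocyte markers not called. Krt1, a keratin of differentiating layers, was the exception, at 4503 and 8896 in Mi2 and 21522 and 18749 in WT (log2 change -1.67, adjusted p = 0.0175). That call ended without WT replicate 1. The count of keratinocyte markers called depended on the setting. DESeq2 on recovered reads gave 2 higher and 1 lower. Scaling without mitochondrial genes, or a block for replicate number, gave 0 higher and 2 lower.

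**Figure D1:**
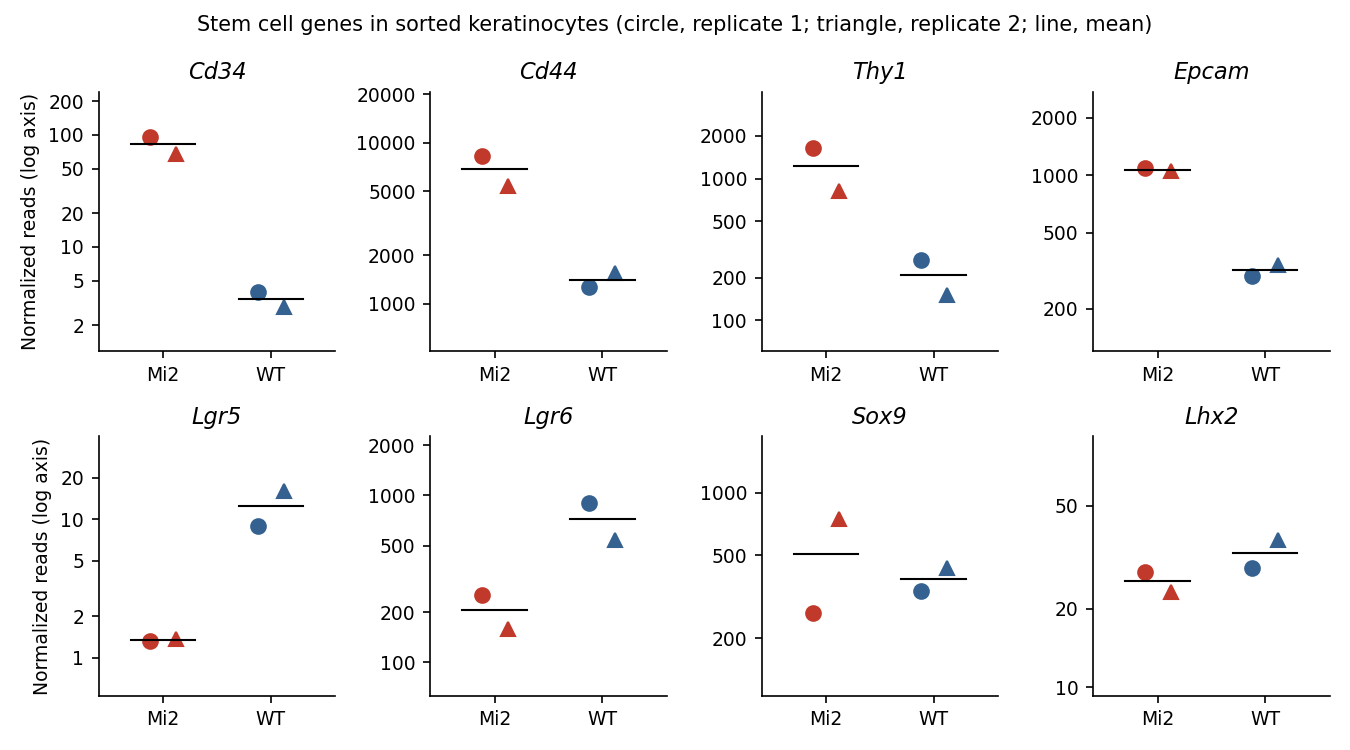
Normalized reads of the 8 stem cell genes (log axis) in the 2 Mi2 and 2 WT keratinocyte libraries; circles are replicate 1, triangles replicate 2 and lines group means. Mi2 points lie above WT points for Cd34, Cd44, Thy1 and Epcam and below them for Lgr5, Lgr6 and Lhx2, and the Sox9 points of Mi2 lie on either side of WT.

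Cd34, the sialomucin used to recognise bulge cells, was close to undetected in WT. It had 96.9 and 68.1 normalized reads in Mi2 keratinocytes, against 3.97 and 2.90 in WT. These values rest on 73 and 50 reads in Mi2 and on 4 and 4 reads in WT. Both Mi2 libraries lay far above both WT libraries (log2 change 4.22, SE 0.462, limma adjusted p = 0.00197). By reads alone the ratio was 24.6, with a 95% exact interval of 12.1 to 58.4 that covers counting error only, since reads carry no molecular identifiers. The strand setting of the counting is unknown here, and a noncoding gene on the opposite strand shares 148 exonic bases with Cd34 in GENCODE, so its reads could be counted with those of Cd34.

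Cd44, the hyaluronan receptor and a marker of activated and basal keratinocytes, stood at 8277 and 5434 normalized reads in Mi2 and at 1267 and 1557 in WT. The groups did not overlap, and the Mi2 mean was 4.85 times the WT mean (6855 ± 2010 and 1412 ± 205, SD, n = 2 each; log2 change 2.25, SE 0.265, limma adjusted p = 0.00262). Epcam had 1095 and 1053 normalized reads in Mi2, against 299 and 340 in WT. Its libraries lay close together within each group, and the change was 1.75 on the log2 scale (SE 0.188, adjusted p = 0.00184).

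Thy1 had 1631 and 812 normalized reads in Mi2 and 265 and 151 in WT. Replicates differed by more than those of Epcam in both groups, and the groups did not overlap (log2 change 2.52, SE 0.388, limma adjusted p = 0.00584). Replicate 1 was the higher library in both groups.

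Lgr6, the R-spondin receptor of isthmus and interfollicular cells, had 253 and 158 normalized reads in Mi2 and 905 and 542 in WT. The Mi2 mean was 0.284 times the WT mean, with no overlap between groups (log2 change -1.80, SE 0.325, limma adjusted p = 0.00944). Without WT replicate 1, its higher WT library, the change was -1.43 and the call ended (adjusted p = 0.0663). Lgr5, its paralog, had 1.33 and 1.36 normalized reads in Mi2, which is 1 read in each library, and 8.93 and 15.97 in WT, from 9 and 22 reads. The read ratio of Mi2 to WT was 0.103 (95% exact counting interval 0.0120 to 0.406). Its mean of 6.90 lay under the filter; with no filter limma gave a log2 change of -2.47 (adjusted p = 0.0396). At so few reads Lgr5 gives a direction and little precision.

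Sox9, which specifies and maintains bulge cells, was the 1 member whose groups overlapped. It had 265 and 745 normalized reads in Mi2 and 335 and 436 in WT. Mi2 replicate 1 lay under both WT libraries and Mi2 replicate 2 above both. The fitted change was 0.22 on the log2 scale (95% interval -0.84 to 1.27, limma adjusted p = 0.739). Leaving out Mi2 replicate 1 made it 0.96, with a call of higher (adjusted p = 0.0354), and leaving out Mi2 replicate 2 made it -0.53 (adjusted p = 0.135). The library with the lower Sox9 value is the one in which mitochondrial genes took 29.7% of reads; the part of that share in the result was not tested.

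Lhx2, a LIM-homeodomain factor of the bulge, had 27.9 and 23.2 normalized reads in Mi2 and 28.8 and 37.0 in WT. The groups were adjacent without overlapping, with a fitted change of -0.35 (95% interval -1.25 to 0.55, limma adjusted p = 0.518). From 17 to 51 reads per library stand behind these values. In all, 7 of the 8 genes had groups that did not overlap, as did 70.7% of all genes tested.

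**Figure D2:**
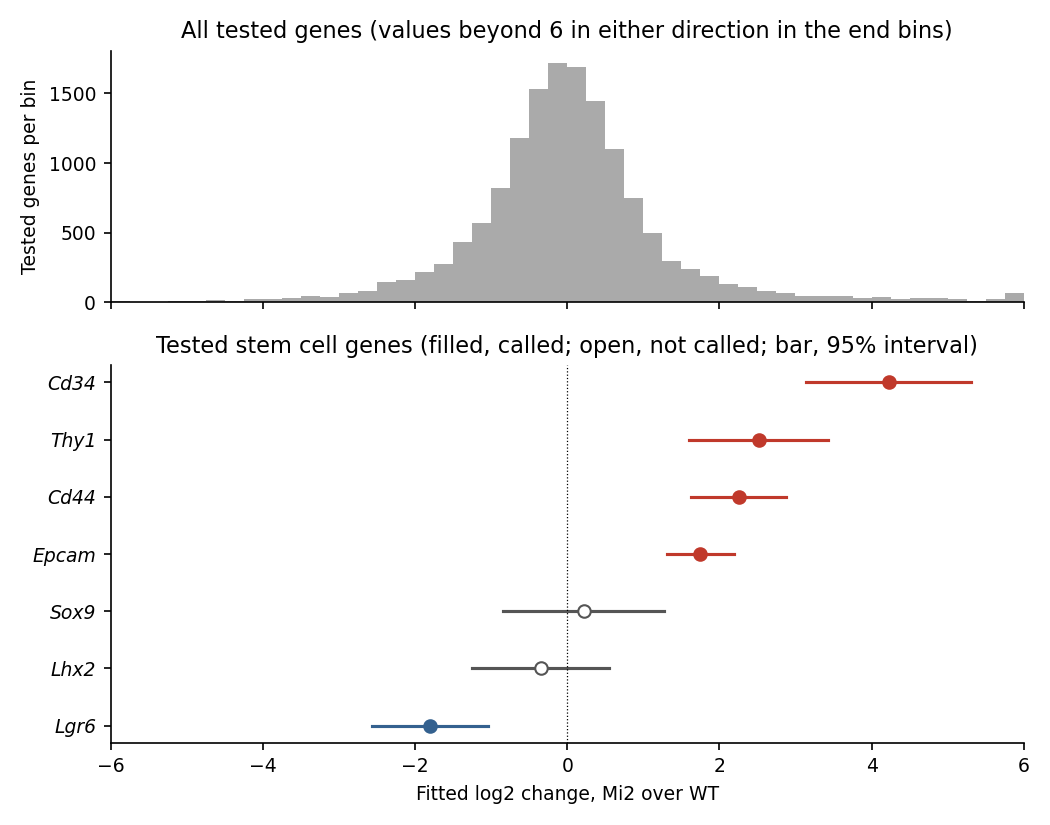
Upper panel, number of tested genes by fitted log2 change (Mi2 over WT) in bins of 0.25; lower panel, the 7 tested stem cell genes on the same axis with 95% intervals. Cd34, Thy1, Cd44 and Epcam lie right of 0, Lgr6 lies left of it, and the intervals of Sox9 and Lhx2 include 0.

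Set among all genes tested, 1.98% changed by more than Cd34 in either direction, 6.47% by more than Thy1 and 8.26% by more than Cd44. The share was 12.4% for Lgr6 and 13.2% for Epcam, so changes of the size seen in these were common. It was 67.9% for Lhx2 and 79.4% for Sox9. Scaling without mitochondrial genes moved the median change of all genes by -0.23, and scaling without the 50 most abundant genes moved it by -0.13. Each scaling divides a library by 1 factor and so shifts nearly all genes alike. Distances from the median were bound to stay nearly the same and are no check of the changes. Cd34 lay 4.26 above the median when mitochondrial genes were left out and 4.25 above it as deposited, Lgr6 lay at -1.78 and -1.77, and Sox9 at 0.24 and 0.25. Under the first of these scalings 1547 genes were called higher and 2734 lower, beside 2185 and 1900 with the deposited values.

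Levels of different genes were compared as normalized reads per kilobase of exon, with lengths from GENCODE M21. In Mi2 keratinocytes the order was Cd44, Epcam, Thy1, Sox9, Lgr6, Cd34, Lhx2 and Lgr5, with means of 1012, 489, 408, 122, 30.0, 11.3, 5.81 and 0.131 normalized reads per kilobase. Epcam and Thy1 could not be ordered there, since the Thy1 libraries (544 and 271) lay on either side of the Epcam libraries (499 and 480). In WT it was Cd44, Epcam, Lgr6, Sox9, Thy1, Lhx2, Lgr5 and Cd34, with means of 208, 145, 106, 93.3, 69.4, 7.49, 1.21 and 0.471. There Sox9 could not be ordered against Lgr6 or Thy1, since the Sox9 libraries (81.1 and 106) overlapped those of Lgr6 (132 and 79.2) and of Thy1 (88.5 and 50.4). The Lgr6 and Thy1 libraries overlapped each other in WT too, so Lgr6, Sox9 and Thy1 had no settled order there. Cd34 was the sixth of the 8 in Mi2 and the last in WT, with no overlap with its neighbours in either group. In Mi2, 97.7% of tested genes had a lower level per kilobase than Cd44, 94.95% than Epcam and 93.9% than Thy1, against 89.3%, 84.1% and 67.1% in WT.

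The genes whose profile over the 4 libraries lay nearest to each tested member, among tested genes within 2-fold of its mean, were Gfra1 for Cd34, Pkm2 for Cd44, E130012A19Rik for Thy1, Map3k6 for Epcam, Cacnb3 for Lgr6, Rc3h2 for Sox9 and Pitpnm3 for Lhx2. Likeness was the Euclidean distance of log2 values centred on the WT mean, which ran from 0.0573 for Map3k6 to 0.337 for Cacnb3. Over 4 libraries such a distance describes these samples only. Gfra1 stood at 174 and 101 normalized reads in Mi2 and 7.94 and 5.08 in WT.

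THY1 is carried by T cells and fibroblasts, CD34 by endothelium, fibroblasts and blood progenitors, and EpCAM by Langerhans cells, so markers of these cells were read in the same libraries. In bulk samples a change in the number of such cells and a change in RNA per cell cannot be told apart. The 15 T cell markers in the table summed to 142 and 89.9 normalized reads in Mi2 and 155 and 150 in WT. Only 2 of them reached the level for testing, with 0 higher and 1 lower, Trbc2, whose call ended in 8 alternative settings. Cd3e, a chain of the T cell receptor complex, had 0 and 2.72 normalized reads in Mi2 and 11.9 and 5.08 in WT, Cd3g had 0 and 1.36 in Mi2 and 0 and 2.90 in WT, and Ptprc, the leukocyte antigen CD45, had 5.31 and 1.36 in Mi2 and 4.96 and 4.36 in WT. In the 5 regulatory T cell libraries, which were counted and scaled separately, Thy1 stood at 1.27 to 1.73 times Cd3e. The most abundant T cell list members in keratinocytes were Cd247, Trbc2 and Cd5, with Cd247 at 54.4 and 53.1 in Mi2 and 57.6 and 69.7 in WT. Cd4, Cd8a and Trac were the 3 of these 15 genes with 0 reads in all 4 libraries, and the others had reads. The part of T cells in the change of Thy1 was not tested.

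Of 14 dermal fibroblast markers, 8 were tested, 4 were called higher and 0 lower, and their summed level was 3796 and 2245 normalized reads in Mi2 and 903 and 574 in WT. Sparc, a secreted matrix protein gene, made up most of the sum, at 2944 and 1711 in Mi2 and 595 and 400 in WT, followed by Col5a1 at 370 and 268 against 12.9 and 2.90 and by Dpp4 at 171 and 154 against 26.8 and 28.3. The collagen gene Col1a1 stood at 18.6 and 4.09 in Mi2 and 72.4 and 12.3 in WT. Col1a2 stood at 39.8 and 0 in Mi2 and 55.6 and 5.81 in WT, and Pdgfra at 3.98 and 2.72 in Mi2 and 6.95 and 0 in WT. Col1a1 and Col1a2 were not called and Pdgfra was below the filter. Of the 14 markers, 4 and 6 had 0 reads in Mi2 replicates 1 and 2, against 0 and 3 in WT replicates 1 and 2. Lum and Dpt were among those with 0 reads in both Mi2 libraries. The part of the rising list members in the changes of Thy1 and Cd34 was not tested.

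Endothelial markers summed to 70.3 and 24.5 normalized reads in Mi2 and 3.97 and 7.26 in WT. Most of that was Egfl7, at 51.7 and 17.7 in Mi2 and 0.992 and 2.18 in WT, followed by Tek and Tie1 at 7.96 or less in each library; Egfl7, the 1 tested gene of 10, was called higher, lost its call without WT replicate 1 and fell under the filter without Mi2 replicate 1. Pecam1 had 1.33 and 2.72 in Mi2 and 0 and 0 in WT. Cdh5, Kdr, Emcn and Cldn5 were the 4 of these 10 genes with 0 reads in all 4 libraries. The part of endothelial cells in the change of Cd34 was not tested. Mast cell and blood progenitor genes had 0 reads in every library for 7 of 10 members. Hba-a1, Kit and Gata1 were the 3 with reads, and Hba-a1, a globin gene, was lower in Mi2, at 57.1 and 109 against 283 and 849, a call that ended without Mi2 replicate 1. Dermal papilla genes had 0 of 10 tested and summed to 23.9 and 4.09 in Mi2 and 39.7 and 0.726 in WT, with Corin, Rspo4 and Alpl the most abundant.

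Of 11 Langerhans and myeloid genes beside Epcam, 7 were tested and 1 was called higher, with sums of 629 and 1048 normalized reads in Mi2 and 405 and 664 in WT. That gene was Cd74, the class II invariant chain, at 337 and 666 in Mi2 and 169 and 181 in WT, a call that ended without either WT library and without the intensity trend; H2-Ab1 stood at 79.6 and 127 in Mi2 and 81.4 and 77.0 in WT. The Langerhans lectin gene Cd207 had 3.98 and 15.0 in Mi2 and 14.9 and 1.45 in WT, with groups that overlapped. Whether the rise of Cd74 has a part in that of Epcam was not tested. Melanocyte genes had 0 of 3 tested higher and 1 lower, and sebocyte genes 2 of 6 higher and 0 lower, with sums of 6688 and 7358 in Mi2 and 3268 and 4174 in WT. The melanocyte gene was Mitf, a pigment cell transcription factor gene, at 7.96 and 6.81 in Mi2 and 76.4 and 96.6 in WT, while Pmel and Sox10 were not called. With edgeR or DESeq2 on recovered reads, or with a block for replicate number, 1 melanocyte gene was higher. Of the most abundant sebocyte genes, Fasn, encoding fatty acid synthase, stood at 3665 and 2722 in Mi2 and 1194 and 1376 in WT, and Scd1 and Dgat2 were not called. Dropping WT replicate 1 or 2 left 0 or 1 sebocyte genes higher.

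**Figure D3:**
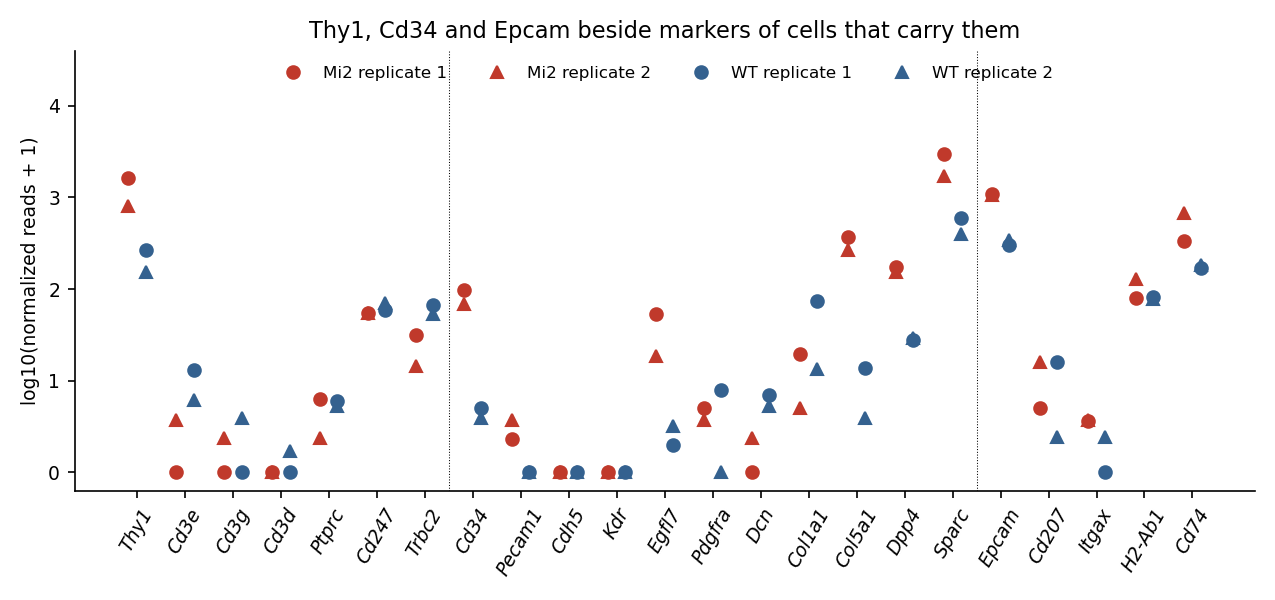
Log10 of normalized reads plus 1 for Thy1, Cd34 and Epcam, each at the left of its block, beside markers of T cells (left block), of endothelium and fibroblasts (middle block) and of Langerhans cells (right block), in Mi2 (red) and WT (blue) libraries. Thy1, Cd34 and Epcam stand higher in Mi2 and Cd3e and Col1a1 do not, while Sparc, Col5a1, Dpp4, Egfl7 and Cd74 do; of the whole lists, 4 of 8 tested fibroblast genes, the 1 tested endothelial gene and 1 of 7 tested Langerhans and myeloid genes were called higher, and 0 of 2 tested T cell genes.

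The list counts below stand beside 15.1% called higher and 13.1% called lower among all genes tested. Genes around the R-spondin receptors had 4 of 11 tested members lower and 0 higher in Mi2 keratinocytes, with a median log2 change of -0.31, also with Rspo3 at its bound. Rspo3, a ligand of LGR5 and LGR6, had 0 reads in both Mi2 libraries and 113 and 112 normalized reads in WT, at least 27.9-fold lower against a floor of 3 reads per library. The ubiquitin ligase genes Rnf43 and Znrf3, whose products remove Wnt receptors and are held back by R-spondins, fell by 1.62 and 0.87 on the log2 scale (limma adjusted p = 0.00271 and 0.0253), and the Wnt receptor gene Fzd10 fell by 2.16 (adjusted p = 0.00142). The call of Znrf3 ended without either WT library and without an intensity trend, and without either WT library 3 members were lower. Lgr4, the third receptor of the family, had 330 and 264 in Mi2 and 273 and 294 in WT and was not called (log2 change 0.06, 95% interval -0.44 to 0.56). Axin2, a common Wnt target gene, was among the hair germ genes below and stood at 353 and 629 in Mi2 and 1252 and 1109 in WT (log2 change -1.32, adjusted p = 0.0171), a call that ended without either WT library or the trend.

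Hyaluronan and CD44 partner genes had 6 of 15 tested members higher and 0 lower, with a median log2 change of 0.47. The hyaluronan synthase gene Has2 stood at 86.2 and 147 normalized reads in Mi2 and 0.992 and 2.90 in WT, and Has1 at 65.0 and 38.1 in Mi2 and 0 and 3.63 in WT (fitted log2 changes 5.35 and 4.56). Both synthase genes had 5 reads in WT and, like Cd34, passed the level filter only through Mi2, so that being tested required a difference. The same holds for Dlx2, Podxl, Cldn7, Krt73, Egfl7 and Col5a1 among the called genes named here, and, through WT, for Rspo3, Tspan8 and Mitf, which count among the calls of their lists. The synthase genes had read ratios of 55.5 (95% interval 23.3 to 173) for Has2 and 24.7 (10.1 to 78.2) for Has1. Hmmr, a hyaluronan-binding protein gene of mitotic cells, rose by 2.501, and Msn, whose product moesin ties the CD44 tail to actin, rose by 2.45 (adjusted p = 0.00277 and 0.00102). The list also holds Cd74, described above. The related genes Ezr and Rdx were not called. Without either WT library 4 members were higher, and without WT replicate 1 there was 1 lower.

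CD34 belongs to a small sialomucin family, and its relative Podxl, the podocalyxin gene, rose with it. Podxl had 622 and 196 normalized reads in Mi2, against 0.992 and 0.726 in WT, or 1 read in each WT library, a read ratio of 491 (95% exact interval 135 to 4067). Podxl2, the third of the family, stood at 29.2 and 27.2 in Mi2 and 12.9 and 13.1 in WT and was not called. Of 7 relatives and ligands, 4 were tested, 1 was higher and 0 lower, with a median log2 change of 0.94; without Mi2 replicate 2 there were 2 higher. Selp, which encodes a selectin of vessels, had 0 reads in all 4 libraries.

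Genes of EpCAM's partners had 4 of 15 tested members higher and 3 lower, with a median log2 change of -0.04. The tight junction genes Cldn7, whose product binds EpCAM, and Cldn4 rose by 4.28 and 1.63 (limma adjusted p = 0.0165 for Cldn4). Tspan8 had 1 read in Mi2 and 65 in WT, a read ratio of 0.0247 (95% exact interval 6.2e-04 to 0.142), and Cd9, another tetraspanin gene, fell by 0.90 (adjusted p = 0.0270). Leaving out Mi2 replicate 1 gave 2 higher and 2 lower, leaving out Mi2 replicate 2 gave 4 and 2, and dropping WT replicate 1 or 2 gave 1 and 0 or 1 and 1. The calls of Cldn4 ended without either WT library, and that of Cd9 without WT replicate 1, Mi2 replicate 2 or the intensity trend.

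Among SOX and LIM-homeobox relatives, 8 of 22 were tested, 2 were higher and 3 lower, with a median log2 change of -0.09, and 9 had 0 reads in all 4 libraries. Sox15 and Sox12 rose by 1.62 and 1.11 (limma adjusted p = 0.0131 and 0.0127). Lmo4 and Ldb1, which encode a LIM-only protein and the adaptor that LIM-homeodomain factors such as LHX2 bind, fell by 1.54 and 1.08 (adjusted p = 0.00272 and 0.0161). The other LIM-homeobox genes listed, from Lhx1 to Lhx9, held 1 read in total, in WT replicate 1. Sox8 had 1 read in all, and Sox10, the third gene of the SOX9 subgroup, stood at 38.5 and 9.54 in Mi2 and 2.98 and 2.18 in WT without a call. With edgeR or DESeq2 on recovered reads, or with a block for replicate number, 3 genes of this list were higher. Leaving out Mi2 replicate 2 gave 3 higher and 3 lower, and dropping WT replicate 1 or 2 gave 1 and 1 or 0 and 1. Calls of Sox12 and Ldb1 ended without either WT library, that of Ldb1 also without trend, and that of Sox15 without WT replicate 2.

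Other bulge and follicle stem cell genes moved in both directions, with 5 of 21 tested members higher, 3 lower and 13 not called (median log2 change 0.37). Without the intensity trend 2 were higher and 4 lower. Krt15, a keratin of bulge and basal cells, fell to 4202 and 8781 normalized reads in Mi2, against 49093 and 40508 in WT (log2 change -2.88, SE 0.403, limma adjusted p = 0.00434), opposite to Cd34. Dkk3, a secreted glycoprotein gene of the Dickkopf family, rose by 2.38, while the Wnt receptor gene Fzd2 fell by 1.47 and Gas1, a Hedgehog co-receptor gene, by 1.45. Nfatc1, a factor of quiescent bulge cells, stood at 569 and 591 in Mi2 and 413 and 547 in WT and was not called. Leaving out Mi2 replicate 1 gave 3 higher and 3 lower, leaving out Mi2 replicate 2 gave 6 and 5, dropping WT replicate 1 or 2 gave 1 and 1 or 3 and 2, and scaling without mitochondrial genes gave 4 and 6. Fzd2 lost its call without either WT library and Gas1 without WT replicate 1.

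Upper follicle and isthmus genes, which share the territory of Lgr6, had 3 of 13 tested members higher and 1 lower, with a median log2 change of -0.05. Plet1 stood at 3206 and 1864 normalized reads in Mi2 and 289 and 446 in WT, and the Hedgehog pathway genes Gli1 and Gli2 rose by 3.62 and 2.16 (limma adjusted p = 8.8e-04 and 0.0107). Krt80 fell to 750 and 1889 in Mi2, against 4201 and 5368 in WT (adjusted p = 0.0143). Lrig1, a stem cell marker of the same region, stood at 984 and 1034 in Mi2 and 1018 and 1073 in WT, without a call. Without Mi2 replicate 2 there were 4 lower.

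Hair germ, matrix and placode genes had 4 of 17 tested members higher and 5 lower (median log2 change 0.17). Dlx3, a homeobox gene of hair and epidermal differentiation, stood at 304 and 264 normalized reads in Mi2 and 20.8 and 19.6 in WT, its relative Dlx2 rose by 4.16 and Cdh3, encoding the P-cadherin of the hair germ, by 1.51. Bmp4, a growth factor gene, fell by 3.28 (limma adjusted p = 8.4e-04). Shh and Sox11 had 0 reads in all 4 libraries, and Lef1 was untested, at 3.98 and 1.36 in Mi2 and 6.95 and 5.08 in WT. Dropping WT replicate 1 left 3 lower, and dropping WT replicate 2 left 2.

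Of 10 tested root sheath genes, 7 were higher and 3 lower, with a median log2 change of 2.04, also with Krt73, which had 0 reads in WT, at its bound. Krt17 and Krt16, keratins of the outer root sheath and of stressed epidermis, rose by 2.72 and 1.61, and Krt25, an inner root sheath keratin, fell by 2.56, as did Gata3 by 1.45. Keratin paralogs resemble each other, and how reads matching several of them were counted is unknown. Dropping WT replicate 1 gave 4 higher and 1 lower, dropping WT replicate 2 gave 6 and 1, and the call of Krt25 ended without either. Of 17 interfollicular basal genes, 3 rose and 3 fell (median log2 change 0.40), with Igfbp3 lower by 4.19, at 249 and 620 normalized reads in Mi2 and 6510 and 7906 in WT. Sox6 and the cadherin gene Cdh13 fell by 1.44 and 1.22; both calls ended without WT replicate 1, and that of Sox6 also without WT replicate 2 or the trend. Leaving out Mi2 replicate 2 gave 5 basal genes higher and 3 lower, dropping WT replicate 1 or 2 gave 0 and 1 or 0 and 2, and scaling without mitochondrial genes gave 1 and 5.

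**Figure D4:**
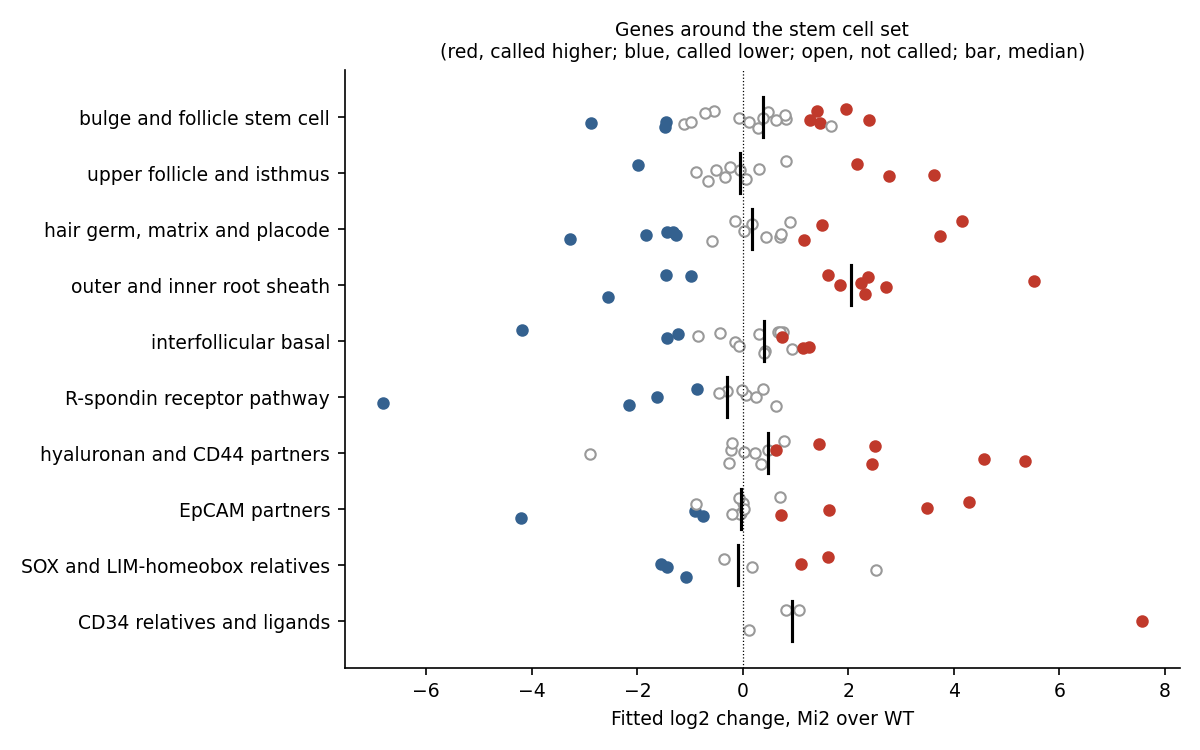
Fitted log2 change, Mi2 over WT, of every tested gene in the 10 lists around the stem cell genes, 1 list per line; red, called higher, blue, called lower, open, not called, bar, list median. R-spondin receptor genes called lie left of 0 and hyaluronan and CD44 partner genes called lie right of it, while bulge, upper follicle, hair germ and basal genes lie on both sides.

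Across the 15 alternative settings, the calls of Cd34, Cd44, Thy1 and Epcam held in every setting and Lhx2 stayed uncalled. Their log2 changes ran from 3.36 to 4.62 for Cd34, 1.95 to 2.56 for Cd44, 2.02 to 3.02 for Thy1 and 1.52 to 1.84 for Epcam. With edgeR's quasi-likelihood test on recovered reads the changes were 4.56, 2.28, 2.55 and 1.75 (adjusted p = 0.00154, 0.00284, 0.00539 and 0.00187).

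**Figure D5:**
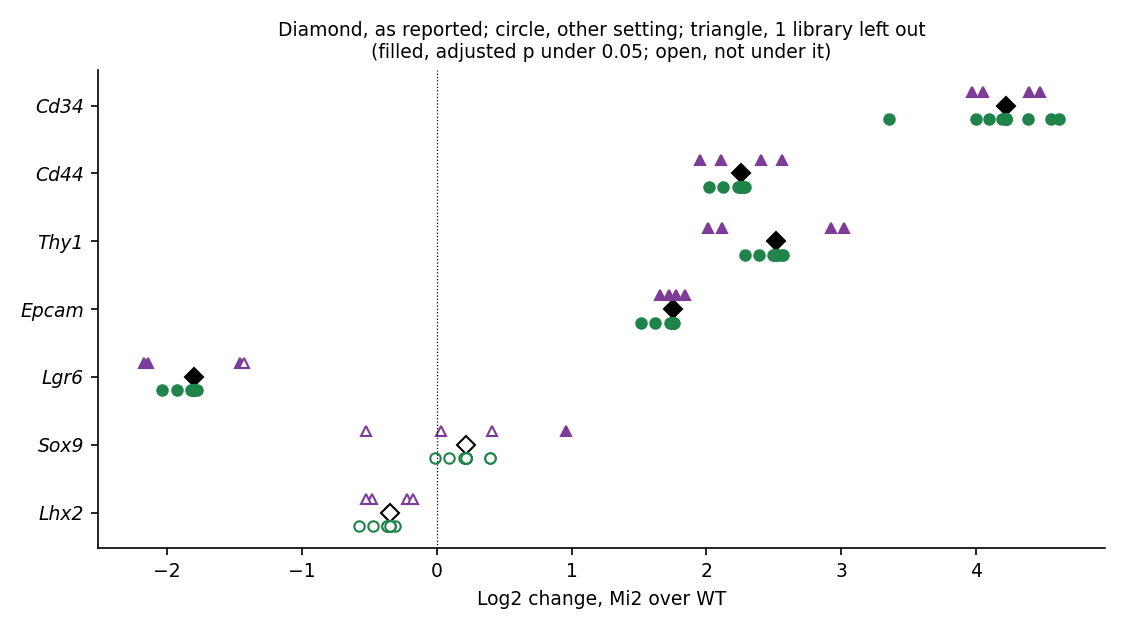
Log2 change, Mi2 over WT, of the 7 tested stem cell genes as reported (diamonds), under 11 other settings (circles) and with 1 library left out (triangles); filled symbols have an adjusted p under 0.05. Cd34, Cd44, Thy1 and Epcam are filled throughout, Lgr6 is open in 1 left-out case, and Sox9 lies on both sides of 0.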

How the data were processed

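The authors deposited normalized read counts (a signal per gene) for 4 keratinocyte libraries; every value above 0 was a whole multiple of its library's value for 1 read within 0.05 reads (100% of values), so whole reads were recovered. The submitters' processing notes list bcl2fastq 1.8.3, STAR, DESeq2, mm9 and mm10 with no role for each; no source used here names the counting program, annotation or strand setting, or ties the library kits, 1 of them stranded, to samples. Per the file headers, the regulatory T cell signal was counted with HOMER in exons of RefSeq transcripts on mm9; each symbol was represented by its highest transcript.

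Values were analysed as log2(value + 1) by limma 3.58.1 (R 4.3.3), with the prior variance following intensity, for genes with a mean of at least 10, so fold changes of low genes are understated. All tests were two-sided, with Benjamini-Hochberg adjustment over 14461 genes; limma called 4085 and edgeR 4.0.16 on recovered reads called 4107. DESeq2 1.42.0 was a further alternative. The fit was also run on simulated data with 200 changed genes and the same dispersion (spread) for every gene. Far more genes were called here than were changed there, so that run does not show how reliable these calls are. The members and gene lists were chosen with earlier results of these data known. Symbols were matched by the table's or the current name (31819 IDs had one). Named genes were all members, up to 4 called genes with the smallest p of each list, the 3 most abundant of each marker list, defining markers, Chd4 and the nearest profile of each tested member; Lgr4, Axin2, Ezr, Rdx, Podxl2, Selp, Nfatc1, Lrig1, Shh, Sox11, Lef1, Sox8, Sox10, Krt1, Krt73, Cd207, Cd4, Cd8a, Trac, Lum, Dpt, Kdr, Emcn, Cldn5 and the LIM-homeobox genes were named after their values were seen. Some genes that the rule names are not reported here.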

Additional observations from a re-analysis of the deposited data

Results flagged for a closer look

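In the regulatory T cell table, whose values enter no test here, 2 of the 8 genes stood more than 1.5-fold above both Ctl libraries in all 3 libraries labelled Treg_Mi2. The difference was not tested. The share of all transcripts that meet the same rule was not counted, so whether 2 of 8 is unusual is unknown. Lhx2 had 19.4 and 10.95 normalized reads in the libraries labelled TSLPR WT Treg_Mi2 and 10.13 in the TSLPR-negative library, against 2.37 and 4.81 in Ctl Tregs, from 22, 11 and 12 reads against 2 and 6. Lgr6 had 6.17 and 4.98 in the libraries labelled TSLPR WT Treg_Mi2 and 2.53 in the TSLPR-negative library, against 0 and 0.8 in Ctl Tregs, from 7, 5 and 3 reads against 0 and 1. In keratinocytes Lgr6 fell and Lhx2 was not called.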

How the results depend on the processing

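Of the 7 tested genes, 5 kept direction and call in all 15 alternatives. Sox9 turned to -0.016 on the log2 scale with mitochondrial genes left out of the scaling, which moved the median of all genes by -0.23. Relative to that median Sox9 was 0.24, beside 0.25 as deposited. A scaling that shifts nearly all genes alike could not change that distance, so the turn of sign came with the shift. Sox9 ran from -0.53 to 0.96 with 1 library left out. Lgr6 ran from -2.17 to -1.43 and lost its call without WT replicate 1. Lgr5 was tested only without a filter, at -2.47, which made 2 members lower. With 1 library left out, 4 to 5 members were higher and 0 to 1 lower, and over all genes 771 to 2716 were higher and 342 to 3099 lower; then 1 pair of libraries sets the spread, and log2 values of the Mi2 pair correlated less across genes (0.942) than those of the WT pair (0.978). Replicate numbers are shared between groups, but nothing ties equal numbers to 1 mouse or batch, and deviations of equal-numbered libraries correlated at 0.12 over genes. A replicate block gave 2612 genes higher and 2558 lower, and kept the call of every tested member, with an adjusted p of 2.6e-04 for Cd34. Depth limits the precision of Lgr5, with 1 read in each Mi2 library, and of Cd34, with 4 reads in each WT library.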

Other observations

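Cd44, Thy1 and Epcam had reads in all 5 regulatory T cell libraries. Cd44 had 4896 and 4591 normalized reads in the libraries labelled TSLPR WT Treg_Mi2 and 3266 in the TSLPR-negative library, against 3484 and 3451 in Ctl Tregs. Thy1 ran from 8878 to 13424 and Epcam from 196 to 219 over the 5 libraries. Cd34, Sox9 and Lgr5 had at most 3 reads in any of them.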
